A study of Mus musculus with 45 samples.

Results

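The secreted growth factors described here were 9 ligands known from fibroblasts or their neighbours: Hbegf, Ereg and Areg of the EGF family, Inhba, Tgfb1 and the distantly related Gdnf of the TGF-beta superfamily, Vegfa and Pdgfa of the VEGF and PDGF family, and Fgf2. They were listed by gene symbol with earlier results of these data known, as were the gene lists further below. Counts of called genes beside the share of all probe sets are therefore descriptions and no independent test of the choice. A probe set counted as theirs when the platform annotation gave it that symbol and no other. Of the 9 ligands, 8 had such probe sets, 12 in all, among 13232 genes with a probe set of a single symbol. Areg was not analysed here. Where a ligand had a second probe set, the one with the higher mean over all 45 arrays is given first, and the other is named as the other probe set.

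Growth factor ligands are made as precursors that are shed or secreted and then act on receptors of the same or a neighbouring cell. Hbegf and Ereg bind EGF receptors after proteases of the ADAM family release them from the membrane, and transcripts of several EGF family ligands are known to be induced within minutes of fresh serum and to be short-lived. Inhba encodes the subunit of activin A, Gdnf signals through the Ret receptor, Tgfb1 is stored in the matrix in a latent form, Vegfa acts on endothelium, and Pdgfa and Fgf2 drive fibroblast growth.

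The cells were NIH-3T3, an established line of mouse embryonic fibroblasts, grown in DMEM with 5% newborn calf serum and used between passages 5 and 15, at about 80% density. Each experiment began with a change to fresh medium that held either actinomycin D, which blocks transcription, at 5 µg/ml, or 4-thiouridine (4sU), a uridine analogue that cells build into new RNA. Total cellular RNA (tc-RNA) was measured in cells taken before actinomycin D and after 1 h and 2 h of it. Labelled, newly transcribed RNA (nt-RNA) was measured after 15 min and 30 min of 500 µM 4sU and after 60 min of 200 µM 4sU, with tc-RNA of labelled cells at 30 min and 60 min and unlabelled pre-existing RNA (p-RNA) at 60 min. A further 60 min set of nt-RNA and tc-RNA is titled 2F, a term left undefined. So is mock, a word found in sample titles at 15 min and 60 min and missing at 30 min. Groups had 3 arrays, except 9 each for nt-RNA and tc-RNA at 30 min, in 11 groups. Nothing says that replicates were separate cultures, so each p reflects array-to-array spread alone, possibly technical.

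All values are GCRMA intensities, arbitrary units of probe brightness that the deposited processing puts on a similar distribution on every array. A ratio between RNA fractions is therefore relative to the other transcripts of each fraction and is not a share of the molecules. Differences are given on the log2 scale with the standard error of limma's fit, which took in every probe set whose log2 values averaged at least 5 (32 on the linear scale). A difference was called, and is said to have risen or fallen, where its Benjamini-Hochberg adjusted p over all tested probe sets lay below 0.05 and it amounted to at least 2-fold. The number of arrays limits the precision, and an amount per cell cannot be told apart from the number of cells.

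All 10 fibroblast markers examined lay above an intensity of 32, led by Vim at a mean of 16230. Of the markers of other cells, 4 epithelial, 3 leukocyte and 2 endothelial genes had a probe set, and Cd14 alone exceeded 32, at a mean of 61.0. The median correlation of an array with its group was 0.946 or higher in all groups but 3, which were nt-RNA at 60 min (0.861 to 0.922), tc-RNA at 60 min (0.904 to 0.947) and nt-RNA at 30 min (0.920 to 0.985). The arrays least like their own group were replicate 1 of nt-RNA and replicate 2 of tc-RNA at 60 min. The 30 min arrays fell into triplets, with replicates 1, 4 and 7, replicates 2, 5 and 8, and replicates 3, 6 and 9 together. Every one of the 9 arrays of both 30 min groups was closest to an array of its own triplet, and tc-RNA arrays correlated at 0.989 to 0.996 within a triplet and 0.926 to 0.971 between triplets. The tests at 30 min therefore may count arrays that are not independent. Results with each triplet averaged are given beside the calls of the ligands' first probe sets. Elsewhere, unless such a result is given, p at 30 min takes all 9 arrays of a group as independent. Groups whose arrays do not overlap were common: this held for 53% of all tested probe sets between nt-RNA and tc-RNA at 30 min, 49.6% at 60 min, 85.9% in 2F and 45.8% between p-RNA and tc-RNA. It held for 7.13%, 34% and 46.7% between tc-RNA at 30 min, 60 min and 2F and untreated cells, for 49.9% and 50.2% at 1 h and 2 h of actinomycin D, and for 36.5% and 20.5% between nt-RNA at 15 min or 60 min and at 30 min.

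Among the ligands tested, Hbegf and Ereg were those whose total RNA rose after the change to labelling medium. Hbegf rose 3.98-fold at 30 min and 8.17-fold at 60 min over untreated cells, and Ereg 3.35-fold and 9.21-fold. Inhba, Vegfa, Pdgfa and Tgfb1 did not pass the test at either time, and Gdnf and Fgf2 were too dim to be tested in total RNA. With no filter on low values Gdnf was called higher at 60 min, but not at 30 min or in 2F. With 32 added to every intensity it was called in none of them. Thus 2 of 6 ligands tested rose at each time, where 0.544% of all probe sets rose at 30 min, 3.49% at 60 min and 1.36% in the 2F experiment. The 3 comparisons share the same untreated arrays, and medium, 4sU and time differ together between the groups, so their parts cannot be told apart.

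The EGF receptor ligand Hbegf (chromosome 18, 36504927 to 36515805 in GRCm38.p6) had intensities of 146, 167 and 160.17 on the 3 arrays taken before treatment. At 30 min the 9 tc-RNA arrays ranged from 544 to 768 with a median of 604, and none overlapped the untreated arrays. At 60 min the arrays read 2139, 864 and 1148, and in the 2F experiment 1350.01, 1078 and 1338. The changes from untreated cells were 1.99 ± 0.19 at 30 min (adjusted p = 7e-06), 3.03 ± 0.24 at 60 min (adjusted p = 3.9e-07) and 2.99 ± 0.24 for 2F (adjusted p = 5.2e-07). With each 30 min triplet averaged, the first change was 1.99 ± 0.27 (adjusted p = 0.0074). The other Hbegf probe set, which read 45.9, 65.1 and 43.8 before treatment, rose by 2.46 ± 0.16 at 30 min, 3.57 ± 0.19 at 60 min and 3.89 ± 0.19 in the 2F experiment.

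Ereg encodes epiregulin, another ligand of EGF receptors (chromosome 5, 91074617 to 91093649). It read 186, 245 and 216 before treatment and 601 to 956 at 30 min, with a median of 682. The arrays at 60 min lay close together, at 2134, 1776 and 2028, and those of 2F at 2297, 2139 and 2108. Its total RNA thus stood above the untreated range on every labelled array, and the 60 min and 2F arrays all stood above the highest at 30 min. The changes were 1.74 ± 0.14 (adjusted p = 1.1e-06), 3.20 ± 0.18 (adjusted p = 3.7e-09) and 3.35 ± 0.18 (adjusted p = 2.3e-09), and 1.74 ± 0.17 at 30 min with triplets averaged (adjusted p = 0.00053).

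**Figure D1:**
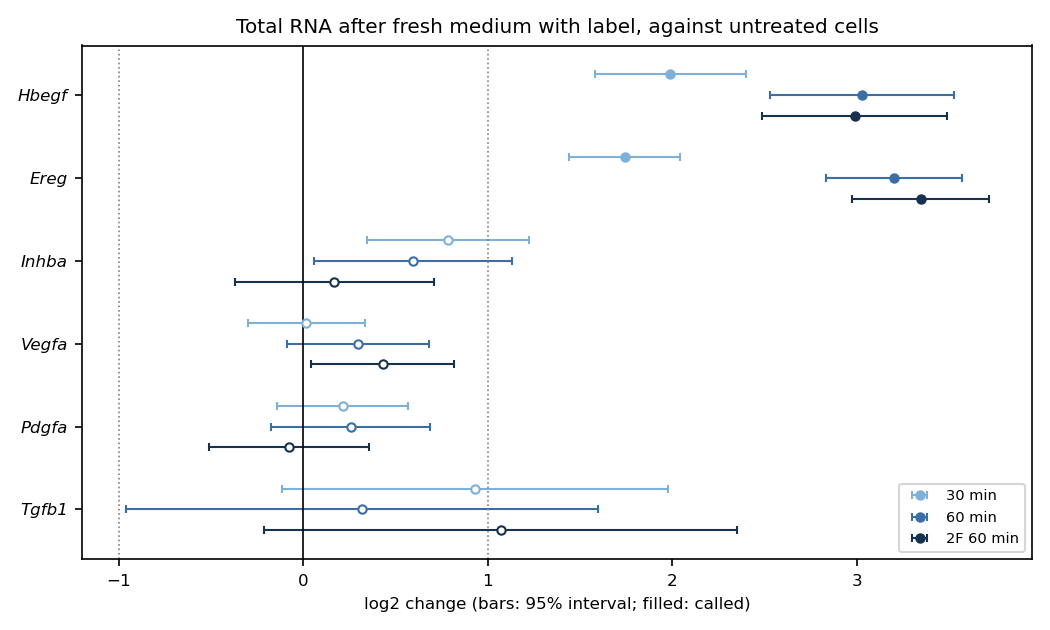
Change of total RNA in labelled cells against cells before treatment (log2, limma, with 95% intervals) for the 6 ligands tested, at 30 min (9 arrays), 60 min and 2F 60 min (3 arrays each) against 3 untreated arrays; filled points passed the test and dotted lines mark 2-fold. Hbegf and Ereg lie to the right at all 3 settings, at 1.74 to 3.35, and the other ligands' points lie between -0.08 and 1.07.

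Inhba, the activin subunit (chromosome 13, 16004256 to 16031609), read 139, 145 and 173 before treatment and 178 to 349.78 at 30 min, with a median of 266. These ranges did not overlap, yet the change of 0.79 ± 0.21 had an adjusted p of 0.068. At 60 min its arrays read 282, 151 and 283, a change of 0.59 ± 0.26 (adjusted p = 0.11), and in 2F 149.96, 157 and 211, a change of 0.17 ± 0.26 (adjusted p = 0.87). The angiogenic factor Vegfa (chromosome 17, 46016993 to 46032377) read 340.17, 277 and 330.33 before treatment, 242 to 405 at 30 min, 414, 338 and 412 at 60 min, and 435, 405 and 432 in 2F. Its differences were 0.02 ± 0.15, 0.30 ± 0.18 and 0.43 ± 0.18, with adjusted p of 0.97, 0.24 and 0.28. Pdgfa, a fibroblast mitogen (chromosome 5, 138976014 to 139000792), read 114, 126 and 109.55 before treatment and differed by 0.21 ± 0.17, 0.26 ± 0.21 and -0.08 ± 0.21 (adjusted p = 0.61, 0.37 and 0.94). At 60 min the other probe sets had the opposite sign, at -0.61 ± 0.44 for Vegfa (adjusted p = 0.31) and -0.53 ± 0.32 for Pdgfa (adjusted p = 0.23), and they were not called at 30 min or in 2F either. Tgfb1 (chromosome 7, 25687002 to 25705077), near the lower limit of the tests, read 49.8, 25.7 and 31.9 before treatment and 24.7 to 138 at 30 min. The high spread of Tgfb1 at 30 min followed the triplets, since replicates 2, 5 and 8 read 24.7, 34.4 and 27.0 and the 6 other arrays 82.8 or more.

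Newly transcribed RNA held more of 4 ligands than total RNA did in all 3 experiments. Hbegf was 7.78-fold higher in nt-RNA than in tc-RNA at 30 min, Ereg 7.43-fold, Inhba 3.98-fold and Vegfa 3.30-fold, while Pdgfa was lower in nt-RNA by just under 2-fold. Gdnf was too dim to be tested at 30 min and passed the filter at 60 min and in 2F through nt-RNA alone, so that it could enter the test only where it was high there. It is described below and left out of the counts of this comparison. At 30 min 4 of 5 ligands tested were called higher against 23.7% of all probe sets, and at 60 min and in 2F 4 of 6 against 17.7% and 24% of all probe sets. Hbegf, Ereg, Inhba and Vegfa were called in all 3 experiments.

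Hbegf nt-RNA read 3731 to 8282 at 30 min with a median of 4053, against 544 to 768 in tc-RNA. Within nt-RNA, replicates 1, 4 and 7 read 6998, 7086 and 8282, and the other triplets 3731 to 4171. The difference between nt-RNA and tc-RNA was 2.96 ± 0.16 (adjusted p = 2e-12), or 2.96 ± 0.29 with triplets averaged (adjusted p = 0.00017). At 60 min nt-RNA read 12232, 10049.9 and 9614, and it read 6789, 7229 and 8645 in 2F. These were 3.04 ± 0.34 (adjusted p = 0.00016) and 2.59 ± 0.13 (adjusted p = 2.2e-07) above tc-RNA.

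Ereg nt-RNA spanned a narrow range at 30 min, 4781 to 5702 with a median of 5485, and its difference from tc-RNA was 2.89 ± 0.10 (adjusted p = 8.1e-15), or 2.89 ± 0.21 with triplets averaged (adjusted p = 0.0001). At 60 min the arrays read 5030.28, 9128 and 9780.3, and in 2F 8192, 8199 and 8025. The low array of the 60 min group was replicate 1, one of the 2 arrays that stood apart. The differences from tc-RNA were 1.96 ± 0.29 (adjusted p = 0.0006) and 1.90 ± 0.08 (adjusted p = 1.4e-07).

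Inhba nt-RNA read 868 to 1324 at 30 min with a median of 1015, 1722, 1141 and 1333 at 60 min, and 948, 825 and 875 in 2F. No nt-RNA array overlapped the tc-RNA arrays of its experiment. The differences were 1.99 ± 0.13 (adjusted p = 2e-11), 2.59 ± 0.33 (adjusted p = 0.00031) and 2.37 ± 0.14 (adjusted p = 4.6e-07), and 1.99 ± 0.23 at 30 min with triplets averaged (adjusted p = 0.00029). Inhba thus differed between the fractions at 30 min, where its total RNA had not passed the test against untreated cells.

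Gdnf, which signals through Ret (chromosome 15, 7810048 to 7837580), was dim in every total RNA group. It read 7.09, 10.6 and 6.84 before treatment and 7.04 to 13.7 at 30 min, and a single array of tc-RNA at 60 min exceeded an intensity of 32, with readings of 23.7, 61.1 and 20.4. In nt-RNA it read 24.5, 22.4 and 13.4 at 15 min, 28.1 to 118 at 30 min, 184, 284 and 194 at 60 min, and 102, 103 and 130.07 in 2F. The differences from tc-RNA were 2.81 ± 0.44 at 60 min (adjusted p = 0.00079) and 2.69 ± 0.12 in 2F (adjusted p = 1.4e-07). All tc-RNA readings but 1 lay below 32 in both experiments, and with 32 added to every intensity the differences shrank to 1.94 ± 0.25 at 60 min (adjusted p = 0.0023) and 1.54 ± 0.09 in 2F (adjusted p = 0.00012). Without any 1 of the nt-RNA arrays at 60 min Gdnf was too dim to be tested.

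Vegfa nt-RNA read 902 to 1372 at 30 min with a median of 990.43, and 1523, 1572 and 1398 in 2F. These were 1.72 ± 0.12 (adjusted p = 7.9e-11) and 1.82 ± 0.09 (adjusted p = 2.1e-07) above tc-RNA, and 1.72 ± 0.23 at 30 min with triplets averaged (adjusted p = 0.00056). At 60 min the nt-RNA arrays read 392, 1260.46 and 1697, the first of them from replicate 1, which lay within the range of tc-RNA. The difference there was 1.29 ± 0.46 (adjusted p = 0.045). It lost its call when replicate 2 or 3 of nt-RNA was left out, at 1.08 (adjusted p = 0.13) and 0.86 (adjusted p = 0.15), or any 1 replicate of tc-RNA, at 1.34, 1.19 and 1.33 without replicates 1, 2 and 3 (adjusted p = 0.078, 0.1 and 0.094). Without both arrays that stood apart it was 1.82 ± 0.20 (adjusted p = 0.00017). The other Vegfa probe set, which read 56.9 to 107.00 in tc-RNA at 30 min, differed by 0.31 ± 0.16 at 30 min (adjusted p = 0.085), 2.49 ± 0.55 at 60 min (adjusted p = 0.005) and 1.09 ± 0.11 in 2F (adjusted p = 1.1e-05).

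Pdgfa lay lower in nt-RNA at 30 min, 50.19 to 124 with a median of 67.4, than in tc-RNA, 116 to 162 with a median of 134. The difference of -0.94 ± 0.15 (adjusted p = 7.9e-06), or -0.94 ± 0.25 with triplets averaged (adjusted p = 0.014), fell just short of 2-fold. It passed it at -1.05 after quantile normalization, at -1.24 with arrays centred on their medians and at -1.19 without replicates 1, 4 and 7, and the other Pdgfa probe set was called lower at -1.07 ± 0.18 (adjusted p = 1.4e-05). Centring shifts every difference, since it moved the median of all probe sets in this comparison from -0.14 to -0.44, so relative to the other transcripts Pdgfa differed by a similar amount. In the 60 min experiment Pdgfa differed by -0.55 ± 0.32 (adjusted p = 0.19), while its other probe set had the opposite sign, at 1.42 ± 0.54 (adjusted p = 0.052). In 2F they differed by 0.31 ± 0.09 (adjusted p = 0.012) and 0.40 ± 0.11 (adjusted p = 0.0096), neither past 2-fold. Tgfb1 differed by -0.50 ± 0.51 at 60 min (adjusted p = 0.45) and -0.60 ± 0.13 in 2F (adjusted p = 0.002), and at 60 min it was called lower, at -1.37 (adjusted p = 0.013), without both arrays that stood apart. At 30 min Tgfb1 was too dim for the fit, with 6.35 to 20.6 in nt-RNA and 24.7 to 138 in tc-RNA, which do not overlap. It was called lower there without a filter, with the pseudocount, in one fit over all arrays and without replicates 2, 5 and 8. The other Tgfb1 probe set, never tested, had the opposite order, with 36.2, 15.2 and 69.8 in nt-RNA and 4.92 to 5.44 in tc-RNA at 60 min, and 20.2 to 26.0 and 5.01 to 5.55 in 2F. Fgf2 (chromosome 3, 37348477 to 37410106) read 5.85 to 8.02 on all 45 arrays and was never tested.

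**Figure D2:**
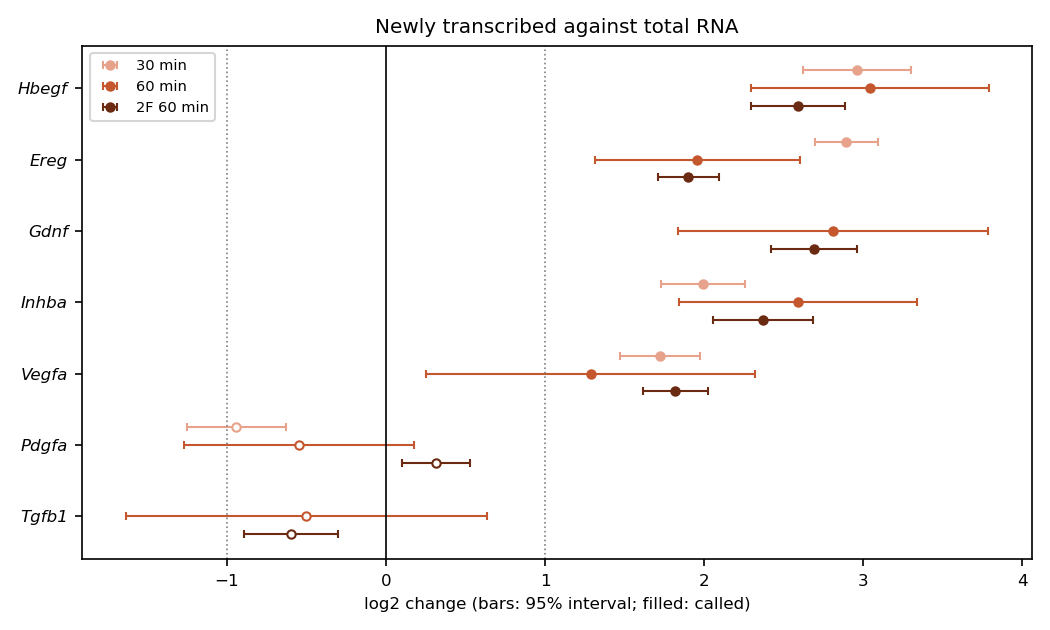
Difference between newly transcribed and total RNA (log2, limma, with 95% intervals) at 30 min (9 arrays a group), 60 min and 2F 60 min (3 arrays a group); filled points passed the test and dotted lines mark 2-fold. Hbegf, Ereg, Inhba and Vegfa lie right of the 2-fold line in all 3 experiments and Gdnf in both where it was tested, while Pdgfa and Tgfb1 lie between -0.94 and 0.31.

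Inhba and Vegfa were called higher in nt-RNA at 30 min, at 60 min and in 2F. Gdnf was called at 60 min and in 2F, where it could enter the test only through high nt-RNA. The bases ahead of an annotated start of these ligands are shown, with those of Tgfb1, which was not called. RefSeq's GRCm38.p6 promoter table held such windows for 6 of the 8 ligands with probe sets, and Hbegf and Ereg had no window there. The windows of Pdgfa and Fgf2, and 1 further window each for Gdnf and Vegfa, are not shown. The 100 bases before the start were searched on both strands for the TATA box TATAAA, the Sp1 box GGGCGG, the AP-1 site TGACTCA and the CRE half-site TGACG, none of which overlapped another here, and matches are in capitals. The windows are chr15:7809948-7810047 on the plus strand for Gdnf, chr13:16011751-16011850 on the plus strand for Inhba, chr17:46032378-46032477 on the minus strand for Vegfa and chr7:25686902-25687001 on the plus strand for Tgfb1.
Gdnf: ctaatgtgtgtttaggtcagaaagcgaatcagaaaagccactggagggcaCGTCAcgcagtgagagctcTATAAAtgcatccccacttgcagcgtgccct
Inhba: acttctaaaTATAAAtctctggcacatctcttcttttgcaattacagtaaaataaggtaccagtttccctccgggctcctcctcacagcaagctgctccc
Vegfa: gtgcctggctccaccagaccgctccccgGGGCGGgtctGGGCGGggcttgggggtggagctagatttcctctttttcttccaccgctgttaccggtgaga
Tgfb1: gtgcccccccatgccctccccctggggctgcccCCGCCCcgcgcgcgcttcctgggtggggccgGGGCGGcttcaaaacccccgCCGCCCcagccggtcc
In these windows, the base next to the start counts as -1. Gdnf held TATAAA from -31 to -26 and TGACG on the opposite strand from -50 to -46. Inhba held TATAAA from -91 to -86. Vegfa held GGGCGG from -72 to -67 and from -62 to -57, and Tgfb1 held it from -36 to -31 and, on the opposite strand, from -16 to -11 and from -67 to -62. Among 32851 windows of 100 bases in the table, 5.56% held TATAAA, 24.7% GGGCGG, 1.88% TGACTCA and 10.5% TGACG. In the windows shown, Gdnf and Inhba both held TATAAA, at different distances, and Vegfa did not. The further windows of Gdnf and Vegfa held none of the motifs searched. A match describes letters only.

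Whether the fraction gap changed with the experiment was read from interaction terms. From 30 min to 60 min, 0 of 5 ligands tested were called in limma's fit, 1 at an unadjusted p below 0.05, where 18.8% of all probe sets were called higher or lower. With triplets averaged that background fell from 2991 probe sets to 0, and without both arrays that stood apart to 764. Ereg was that ligand, with a gap 0.94 ± 0.24 smaller at 60 min (-0.94, adjusted p = 0.0098), just under 2-fold. It was called without replicate 2 of nt-RNA (-1.06), replicate 3 of nt-RNA (-1.11) or replicate 2 of tc-RNA (-1.01), and with triplets averaged its adjusted p was 0.26. Between 60 min and 2F, 0 of 7, Gdnf included, were called in limma's fit, 1 at an unadjusted p below 0.05, against 0.0252% of all probe sets. That background was 4 probe sets, and 648 without both arrays that stood apart. For Hbegf the interval of that difference ran from -1.36 to 0.46 and for Inhba from -1.07 to 0.63, so for both ligands a gap smaller by 2-fold in 2F lay within the interval.

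Within nt-RNA, Hbegf, Ereg and Gdnf were lower after 15 min of label than after 30 min, and Hbegf and Gdnf were higher after 60 min. In the fit 3 of 6 ligands tested were lower at 15 min against 7.29% of all probe sets, and 2 of 6 higher at 60 min against 4.9%. Both counts include Gdnf, whose mean log2 at 15 min was 4.28, below the filter, so that it could enter only through its higher groups. Without Gdnf the ligands called were Hbegf and Ereg at 15 min and Hbegf at 60 min. The 15 min and 30 min groups share their 4sU dose but not the word mock, while the 60 min group also had a lower dose, so the duration, dose and treatment cannot be told apart.

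Hbegf nt-RNA read 1911, 1832 and 1253 at 15 min, below every array at 30 min, a difference of -1.57 ± 0.26 (adjusted p = 0.00046), and -1.57 ± 0.31 with triplets averaged (adjusted p = 0.012). Its 60 min arrays lay above every array at 30 min, by 1.12 ± 0.26 (adjusted p = 0.0046). That call remained with triplets averaged (1.12 ± 0.31, adjusted p = 0.04) and was lost without replicates 2, 5 and 8 (0.96, adjusted p = 0.15) or 3, 6 and 9 (0.97, adjusted p = 0.17). Ereg read 2619.8, 3310.15 and 1894 at 15 min, 1.07 ± 0.20 below 30 min (-1.07, adjusted p = 0.00092). With triplets averaged its adjusted p was 0.046, and the call was lost without 15 min replicate 3 (-0.86, adjusted p = 0.015) and without any 1 triplet (-1.03, -1.12 and -1.05, adjusted p = 0.11, 0.1 and 0.11).

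Gdnf differed by -1.31 ± 0.41 at 15 min (adjusted p = 0.021) and by 2.16 ± 0.41 at 60 min (adjusted p = 0.001). The first was lost with the pseudocount of 32 (-0.67, adjusted p = 0.12), with triplets averaged (adjusted p = 0.052), without 15 min replicate 3 (-1.04, adjusted p = 0.15) and without any 1 triplet (-0.88, -1.55 and -1.51, adjusted p = 0.13, 0.068 and 0.066). The second remained with triplets averaged (adjusted p = 0.0097) and was lost without replicates 3, 6 and 9 (1.97, adjusted p = 0.055). Gdnf's 15 min arrays and 3 of its 9 arrays at 30 min were below 32. Inhba at 15 min read 514, 566 and 502, and its difference of -0.98 ± 0.17 (adjusted p = 0.00066) fell just short of 2-fold. It passed it without 15 min replicate 2 (-1.03) and without replicates 3, 6 and 9 at 30 min (-1.09). At 15 min Vegfa differed by -0.61 ± 0.32 (adjusted p = 0.15) and Pdgfa by -0.51 ± 0.25 (adjusted p = 0.12), and the other Vegfa probe set was called lower, at -1.34 ± 0.27 (adjusted p = 0.0015). At 60 min they differed by -0.16 ± 0.32 (adjusted p = 0.73) and 0.44 ± 0.25 (adjusted p = 0.18), while their other probe sets were called higher, at 1.31 ± 0.27 (adjusted p = 0.0018) and 1.62 ± 0.35 (adjusted p = 0.0024).

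**Figure D3:**
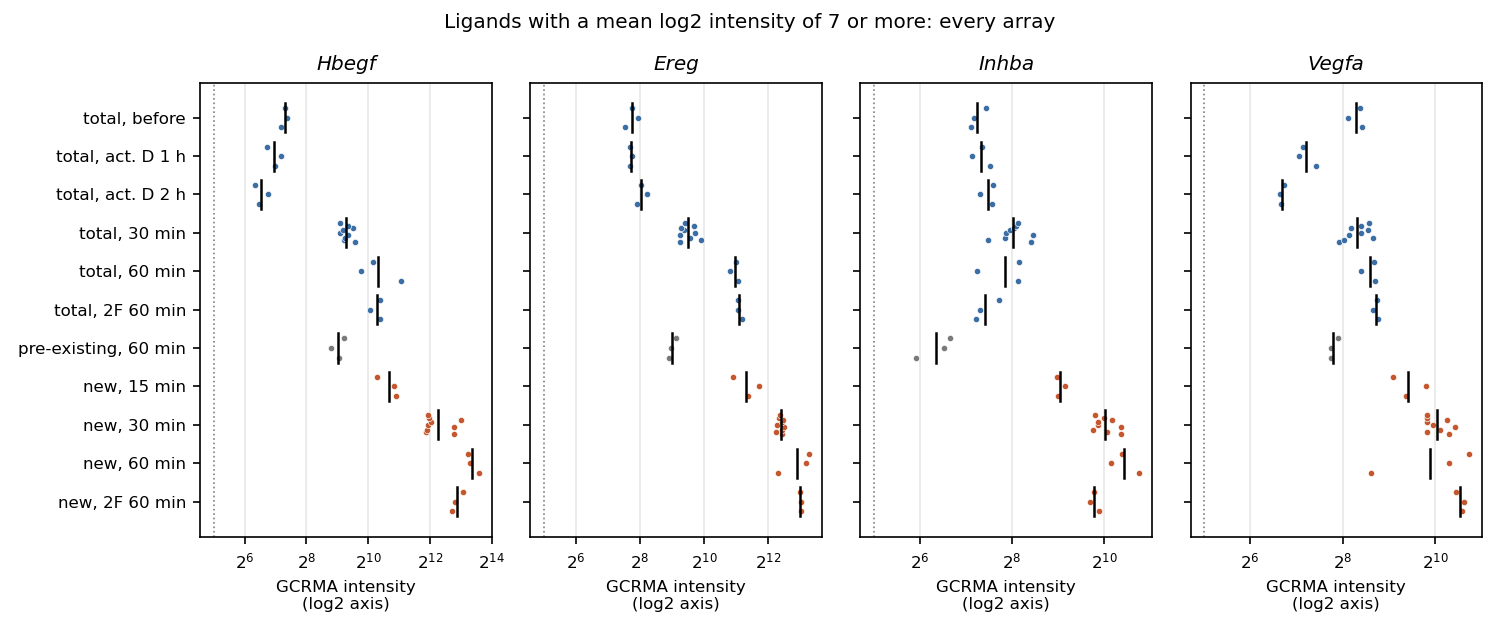
GCRMA intensity (log2 axis) of the 4 ligands with a mean log2 of 7 or more on every array, by group; points are arrays, black bars the mean of the log2 values, the dotted line an intensity of 32, and colours mark total (blue), pre-existing (grey) and newly transcribed RNA (orange). Hbegf and Ereg climb from 81.4 to 294.68 in untreated and actinomycin D cells to 3731 or more in every nt-RNA array of 30 min and longer, while Vegfa also drops to 100.27 to 106 at 2 h of actinomycin D.

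Pre-existing RNA was compared with total RNA at 60 min, and actinomycin D with untreated cells. Against tc-RNA of the same experiment, p-RNA held less Ereg by 3.85-fold, Inhba by 2.79-fold and Hbegf by 2.47-fold. With Gdnf left out as above, these 3 of 6 ligands tested were called lower, against 6.96% of all probe sets. For Hbegf and Ereg the gap is no measure of loss, since their tc-RNA rose and their p-RNA lay above the untreated arrays. Under actinomycin D the called ligand was Vegfa, which fell 2.13-fold by 1 h and 3.05-fold by 2 h, 1 of 5 ligands tested each time against 3.58% and 9.42% of all probe sets. Hbegf, Ereg, Inhba and Pdgfa were not called by their first probe sets.

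Ereg read 479.89, 499.8 and 563 in p-RNA and 1776 to 2134 in tc-RNA, a difference of -1.94 ± 0.29 (adjusted p = 0.0016), which held when each array of the 2 groups was left out in turn. Gdnf read 7.07, 12.75 and 7.01 in p-RNA, near its level before treatment and below 32, as were 2 of 3 tc-RNA arrays. Its fitted difference of -1.85 ± 0.44 (adjusted p = 0.026) shrank to -0.66 ± 0.25 with the pseudocount (adjusted p = 0.19) and was not called after quantile normalization (adjusted p = 0.058) or with no filter (adjusted p = 0.053). Inhba read 60.01, 91.5 and 100.84 in p-RNA, below all 3 tc-RNA arrays, at -1.48 ± 0.33 (adjusted p = 0.021). Hbegf read 534, 445 and 596 in p-RNA and differed by -1.30 ± 0.34 (adjusted p = 0.039). Its other probe set differed by -1.20 ± 0.28 (adjusted p = 0.025). The call of Hbegf was lost with no filter (adjusted p = 0.051), with a mean log2 of 7 or more (adjusted p = 0.063) and with the pseudocount (adjusted p = 0.071), without replicate 1, 2 or 3 of p-RNA (-1.32, -1.19 and -1.40), and without replicate 1 or 3 of tc-RNA (-0.93 and -1.38). That of Gdnf was also lost without p-RNA replicate 1 or 3 (-1.71 and -1.70) or tc-RNA replicate 2 (-1.36), and that of Inhba with the pseudocount (adjusted p = 0.051), without p-RNA replicate 1 or 2 (-1.25 and -1.56) or tc-RNA replicate 3 (-1.33). Vegfa differed by -0.79 ± 0.46 (adjusted p = 0.29), Pdgfa by -0.02 ± 0.32 (adjusted p = 0.97) and Tgfb1 by 0.92 ± 0.51 (adjusted p = 0.26). The other probe sets had the opposite sign, at 1.11 ± 0.55 for Vegfa (adjusted p = 0.22) and 0.98 ± 0.54 for Pdgfa (adjusted p = 0.26).

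Vegfa read 173, 132 and 141 after 1 h of actinomycin D and 103, 100.27 and 106 after 2 h, all below the 277 to 340.17 of untreated cells. It fell by 1.09 ± 0.13 at 1 h (adjusted p = 0.00057) and by 1.61 ± 0.13 at 2 h (adjusted p = 9.6e-06), and both calls held when each replicate was left out. The other Vegfa probe set went differently, with 71.8, 80.5 and 73.8 at 1 h and 44.1, 59.6 and 60.2 at 2 h against 58.6 to 75.3 before. Its changes were 0.16 ± 0.15 (adjusted p = 0.42) and -0.32 ± 0.15 (adjusted p = 0.12), so the fall of Vegfa rests on 1 of its 2 probe sets.

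Hbegf read 126, 144 and 105 at 1 h and 88.3, 109 and 81.4 at 2 h. All 6 arrays lay below the untreated range, with changes of -0.34 ± 0.15 (adjusted p = 0.1) and -0.77 ± 0.15 (adjusted p = 0.0035), under 2-fold. Its other probe set read 16.6, 27.99 and 15.0 at 2 h, all below 32, and fell by 1.41 ± 0.32 (adjusted p = 0.0077). Ereg read 208, 215 and 207 at 1 h and 241, 295 and 259 at 2 h, changes of -0.03 ± 0.13 and 0.30 ± 0.13 (adjusted p = 0.87 and 0.091). Inhba read 183, 141 and 163 at 1 h and 189, 158 and 192 at 2 h, changes of 0.09 ± 0.14 and 0.24 ± 0.14 (adjusted p = 0.65 and 0.22). The intervals of Ereg and Inhba at 2 h ran from 0.02 to 0.58 and from -0.08 to 0.55, so no fall of 2-fold was within them. Pdgfa changed by -0.43 ± 0.12 at 1 h (adjusted p = 0.019) and -0.09 ± 0.12 at 2 h (adjusted p = 0.58).

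Between 1 h and 2 h of actinomycin D, 0 of 5 ligands were called in limma's fit, 4 at an unadjusted p below 0.05, against 9.6% of all probe sets. Vegfa differed by -0.52 ± 0.13 (adjusted p = 0.012) and Pdgfa by 0.34 ± 0.12 (adjusted p = 0.047). The other Hbegf probe set was called lower, at -1.27 ± 0.32 (adjusted p = 0.012), with every 2 h array below 32. Tgfb1, too dim for this fit, was tested and called once, when replicate 1 at 1 h was left out. The scale matters here, because arrays at 2 h had lower median intensities (22.7 to 24.7) than untreated arrays (28.8 to 31.3). Centring on the median moved the median of all probe sets from 0.10 to 0.43 in the 2 h comparison, and the ligands called stayed Vegfa alone.

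**Figure D4:**
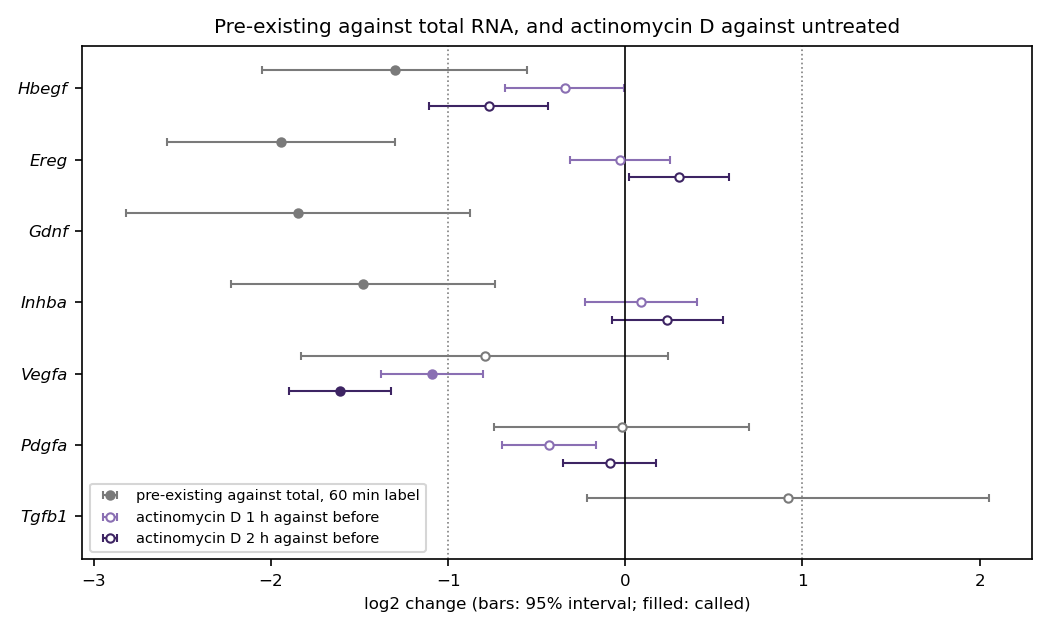
Log2 difference (limma, with 95% intervals) of pre-existing from total RNA at 60 min of label and of total RNA after 1 h and 2 h of actinomycin D from untreated cells, 3 arrays a group; filled points passed the test and dotted lines mark 2-fold. Hbegf, Ereg, Gdnf (mostly below an intensity of 32) and Inhba have filled grey points at -1.30 to -1.94, and only Vegfa has filled actinomycin D points, at -1.09 and -1.61. Gdnf and Tgfb1 were too dim to be tested under actinomycin D.

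The study's purpose, as titled, was to determine half-lives. A half-life from labelling needs total RNA that stays level, which Hbegf and Ereg did not meet. It was computed for Inhba and Vegfa, whose total RNA was not called at 60 min, which does not show that it was level. The ratio of nt-RNA to tc-RNA at 60 min was scaled by a line across 9063 probe sets. Over these probe sets together, the scaled nt-RNA and p-RNA add up to tc-RNA, but for these 2 ligands they did not. Inhba had 23.2% in nt-RNA and 29.6% in p-RNA, and Vegfa 9.42% and 47.6%. Inhba gave 157 min (interval of the ratio 84.2 to 279) and Vegfa 420.5 min (194 to 885). The ratio of p-RNA to tc-RNA alone gave 34.1 min for Inhba and 56.0 min for Vegfa. The loss over 2 h of actinomycin D gave 74.5 min for Vegfa (63.2 to 90.8), from its first probe set alone. The other Vegfa probe set changed by -0.32 at 2 h, with an interval from -0.649 to 0.015 that included no loss. Leaving out 1 array at a time moved Inhba from 65.6 min (without replicate 2 of tc-RNA) to 304 min (without replicate 3 of tc-RNA), and Vegfa from 160.0 min (without replicate 1 of nt-RNA) to 958 min (without replicate 2 of nt-RNA). Without replicate 1 of tc-RNA, or with a line over brighter probe sets, no half-life could be computed. These arrays therefore did not fix a half-life from labelling for either ligand, and that of Vegfa from actinomycin D differed between its probe sets.

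**Figure D5:**
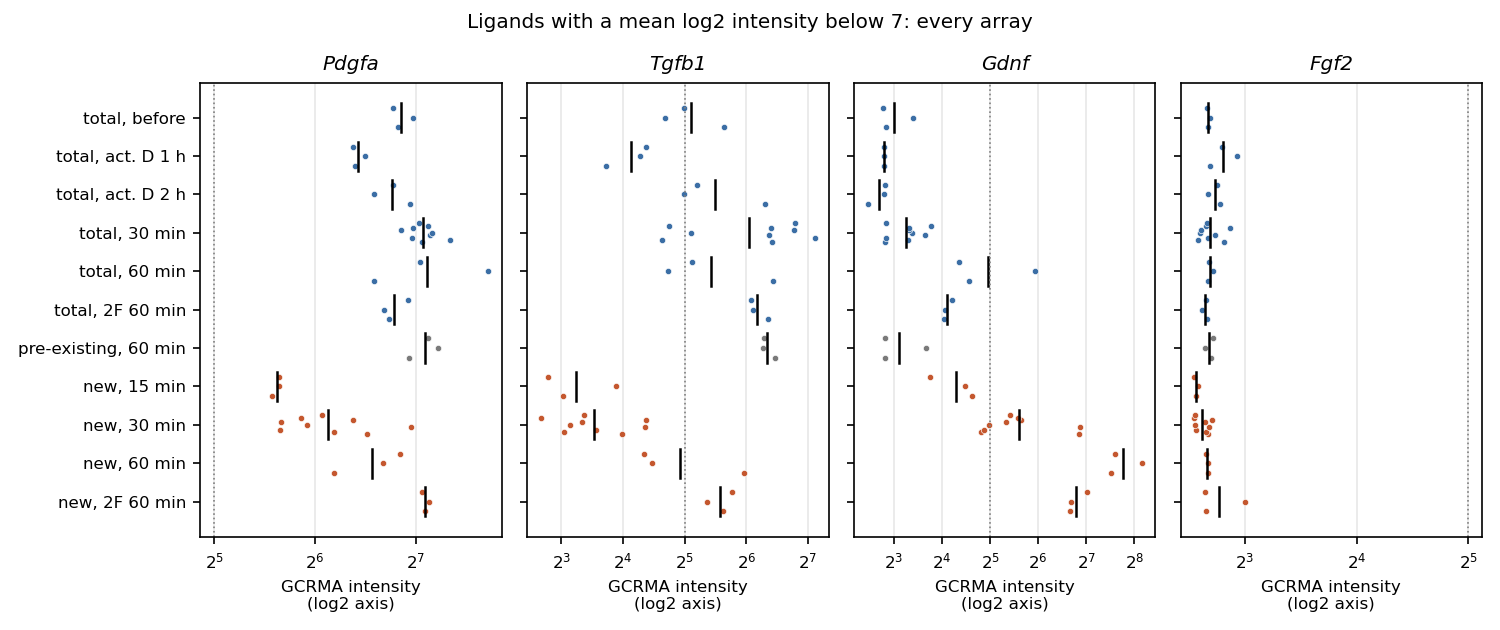
GCRMA intensity (log2 axis) of the 4 ligands with a mean log2 below 7 on every array, by group; points are arrays, black bars the mean of the log2 values, colours mark total (blue), pre-existing (grey) and newly transcribed RNA (orange), and the dotted line is an intensity of 32. Gdnf passes 32 on every nt-RNA array at 60 min, Tgfb1 straddles the line, and Fgf2 stays between 5.85 and 8.02.

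Ranked by mean log2 over the 11 groups, Hbegf ran from 6.53 ± 0.22 (SD, n = 3) at 2 h of actinomycin D to 13.37 ± 0.19 (n = 3) in nt-RNA at 60 min. Steps in its order without overlap separated actinomycin D from untreated cells, untreated cells from p-RNA, tc-RNA at 30 min from 2F, nt-RNA at 15 min from 30 min, and 2F from 60 min nt-RNA. Ereg ran from 7.71 ± 0.03 (n = 3) at 1 h of actinomycin D to 12.99 ± 0.02 (n = 3) in 2F nt-RNA, and its 60 min tc-RNA, 2F tc-RNA and 15 min nt-RNA overlapped in that order. Inhba had its lowest mean in p-RNA (6.36 ± 0.40, n = 3), and untreated cells, both actinomycin D groups and all labelled tc-RNA groups formed a chain of overlapping neighbours above it. Vegfa was lowest at 2 h of actinomycin D (6.69 ± 0.04, n = 3), with 1 h, p-RNA and untreated cells each separate above it, and highest in 2F nt-RNA (10.55 ± 0.09, n = 3). Pdgfa stood lowest in nt-RNA at 15 min (5.62 ± 0.04, n = 3), and its 10 other groups formed 1 chain of overlapping neighbours up to 7.12 ± 0.57 (n = 3) in tc-RNA at 60 min. Every neighbouring pair of groups of Tgfb1 overlapped.

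The genes whose 11 group means ran most like each ligand's were picked by Pearson correlation among 5429 candidates, as a description whose points share arrays and scale. For Hbegf they were Tiam1 (r = 0.988), Ereg (0.982) and Pvr (0.979), and for Ereg, Hbegf (0.982), Fst (0.974) and Clcf1 (0.970). For Inhba they were Rassf1 (0.982), AI506816 (0.979) and Mettl2 (0.973), and for Vegfa Mfsd14a (0.989), Kmt2c (0.988) and Pogz (0.988). Pvr is a cell surface adhesion receptor, Fst (follistatin) binds and neutralises activin, and Kmt2c is a histone methyltransferase. Tiam1, a guanine nucleotide exchange factor for Rac, spanned only 6.61 to 7.90 in mean log2, so a high correlation does not mean a change of the same size.

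The receptors, the shedding, storage and inhibitor genes and the other ligands of the same families were counted in the same fits. Of 23 receptors listed 14 were tested. In limma's fit 0 were called in total RNA at 30 min, 60 min or 2F, where 0.725%, 8.46% and 1.86% of all probe sets were called. In nt-RNA at 30 min 2 of 14 were higher, a smaller share than the 23.7% of all probe sets. They were the activin receptors Acvr1b (1.78 ± 0.21, adjusted p = 2e-07) and Acvr2a (1.57 ± 0.29, adjusted p = 4.9e-05). By 2 h of actinomycin D 2 of 14 fell, against 9.42% of all probe sets. They were Acvr1b (-1.84 ± 0.27, adjusted p = 0.00055) and Egfr, the receptor of Hbegf and Ereg (-1.17 ± 0.24, adjusted p = 0.0045). The receptors' median change was 0.60 between nt-RNA and tc-RNA at 30 min, against -0.14 over all probe sets tested.

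Of 23 genes of shedding, storage and inhibition, 21 were tested in total RNA. Of these, 1 rose at 30 min, 6 at 60 min and 3 in 2F, against 0.544%, 3.49% and 1.36% of all probe sets. At 60 min 1 fell, where 4.98% of all probe sets fell. Errfi1, a feedback inhibitor of EGF receptors, rose by 1.86 ± 0.17 at 30 min (adjusted p = 4.2e-06) and 2.54 ± 0.21 at 60 min (adjusted p = 8.9e-07). Fst rose by 1.91 ± 0.45 (adjusted p = 0.0097), Smad7, an inhibitor of TGF-beta signalling, by 1.51 ± 0.29 (adjusted p = 0.0025), and Spry2, an inhibitor of receptor tyrosine kinase signalling, by 1.38 ± 0.24 (adjusted p = 0.0015), all at 60 min. The tetraspanin Cd9, a membrane partner of the Hbegf precursor, fell by 1.62 ± 0.45 at 60 min (adjusted p = 0.021). In 2F, Errfi1 and Fst were called higher too. Smad7 (0.91 ± 0.29, adjusted p = 0.11), Spry2 (0.74 ± 0.24, adjusted p = 0.13) and Cd9 (-0.01 ± 0.45) were not called there. In nt-RNA against tc-RNA at 30 min, 9 of 21 were higher, against 23.7% of all probe sets, and 6 lower, against 25.6%, led by Spry4 (2.75 ± 0.16, adjusted p = 3.7e-12) and, lower, by the heparan sulfate proteoglycan Gpc1 (-2.41 ± 0.24, adjusted p = 1.1e-08).

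By 2 h of actinomycin D, 6 of 20 tested genes of this list had fallen, against 9.42% of all probe sets, including Spry2 (-4.37 ± 0.20, adjusted p = 3.5e-07), Errfi1 (-3.34 ± 0.11, adjusted p = 1e-07), Spry1 (-3.11 ± 0.29, adjusted p = 2.8e-05) and Smad7 (-2.87 ± 0.24, adjusted p = 1.4e-05). The other 14 were not called, and the median change over all 20 was 0.06. Against the genes named, the fall of Vegfa by 1.61, seen on 1 of its 2 probe sets, was smaller. Ereg and the first Hbegf probe set were not called in the same cells, while the other Hbegf probe set fell by 1.41, to readings below 32. In p-RNA 2 of 21 were lower than in tc-RNA, a share near the 6.96% of all probe sets. They were Errfi1 (-1.79 ± 0.24, adjusted p = 0.00088) and Spry2 (-1.67 ± 0.39, adjusted p = 0.025). Of 25 other ligands of the same families 7 were tested. Nrg1, an ErbB ligand, and Fgf7 were higher in nt-RNA at 30 min (1.25 ± 0.15, adjusted p = 2.1e-07, and 1.17 ± 0.14, adjusted p = 3e-07), Vegfb was lower (-3.33 ± 0.30, adjusted p = 3.5e-09), and Nrg1 and Fgf7 fell by 2 h of actinomycin D (-1.09 ± 0.14, adjusted p = 0.0002, and -1.45 ± 0.10, adjusted p = 2.8e-06). Thus at 30 min the first Vegfa probe set and Vegfb lay on opposite sides of tc-RNA. The other Vegfa probe set, Vegfc and Vegfd were not called there.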

How the data were processed

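Per the labels' protocols, Trizol was used for extraction and Affymetrix's one-cycle protocol for labelling. The values deposited by the authors were linear intensities. The submitters' processing notes name GCRMA, with no version. GCRMA corrects for background from probe sequence and normalizes arrays together, so dim probe sets have compressed values. Their log2 was used here. The members and the gene lists were chosen with earlier results of these data known, and genes were named by rule: all members, the 3 most alike genes of each bright member, and up to 4 called genes of each list.

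Of 31451 probe sets, 61 controls were left out and 25031 had exactly 1 symbol. RefSeq identifiers matched 24934 and changed 0 symbols. Fits used lmFit and eBayes of limma 3.58.1 (R 4.3.3) with groups as terms, tested on simulated data, where 100% of 2 log2 changes were recovered at 2 h of actinomycin D and 70% between fractions at 60 min. Alternatives covered scaling, filter, pseudocount, prior, arrays in the fit, replicates and probe sets.

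Same-numbered arrays deviated together (every correlation above 0.1) for actinomycin D against untreated cells at 1 h (0.124 to 0.169) and 2 h (0.209 to 0.527), for nt-RNA (0.142 to 0.293) and p-RNA (0.206 to 0.382) against tc-RNA at 60 min, for nt-RNA at 60 min against 30 min (0.197 to 0.325) and for tc-RNA at 60 min against untreated cells (0.127 to 0.314). No label ties a number to a shared culture.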

Additional observations from a re-analysis of the deposited data

Results flagged for a closer look

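The second probe sets of Vegfa and Pdgfa stood out because the gap between nt-RNA and tc-RNA differed between experiments by a test of that difference. For Vegfa's second probe set the gap was larger at 60 min than at 30 min by 2.18 ± 0.48 (log2, limma, adjusted p = 0.0038), and for Pdgfa's by 2.49 ± 0.48 (adjusted p = 0.0017). With the 30 min triplets averaged, 0 of all probe sets were called in this comparison, so both calls were lost. Their first probe sets differed by -0.44 ± 0.39 (adjusted p = 0.41) and 0.39 ± 0.33 (adjusted p = 0.39). In tc-RNA at 60 min, replicate 2, which resembled its group least, read 15.75 on Vegfa's second probe set against 87.3 and 62.2, and 28.9 on Pdgfa's against 83.3 and 74.3. In nt-RNA at 60 min, replicate 1 read 337 on Pdgfa's second probe set against 91.6 and 112. The part of these arrays in the differences was not tested. No array of the 9-array groups lay far from the others in 16 Dixon tests of the ligands' values. Such a test looks for 1 lone array, so it could miss arrays that differ as a triplet, and it did not cover the 60 min arrays.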

How the results depend on the processing

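Of 210 recomputed counts of called ligands, 189 stayed within 1.5 times the reported count, 16 were smaller and 5 larger, with Gdnf included wherever it was tested (5 for nt-RNA against tc-RNA at 60 min and 4 for p-RNA as fitted). With a pseudocount of 32, 0 ligands were called at 1 h of actinomycin D. For p-RNA against tc-RNA, no filter gave 2, a mean log2 of 7 or more gave 2 and the pseudocount gave 1. One fit over all arrays gave 1 ligand (Tgfb1) for the enrichment at 60 min less that at 30 min, and a mean log2 of 7 or more gave 1 for nt-RNA at 60 min against 30 min. Leaving out a replicate or triplet gave 0 to 1 called between 2 h and 1 h of actinomycin D, 3 to 4 for nt-RNA against tc-RNA at 60 min (5 without both arrays that stood apart, among them Tgfb1 as lower), 1 to 3 for p-RNA, 0 to 1 for the enrichment difference, 1 to 4 for nt-RNA at 15 min and 0 to 2 at 60 min against 30 min. Vegfa's other probe set reversed the sign at 1 h of actinomycin D (0.16), for the enrichment difference (2.18) and for nt-RNA at 60 min against 30 min (1.31). With no call on either side, it also changed sign for p-RNA against tc-RNA (1.11), tc-RNA at 60 min against untreated cells (-0.61) and the enrichment in 2F less that at 60 min (-1.39), as Pdgfa's did for nt-RNA against tc-RNA at 60 min (1.42) and in those 3 comparisons (0.98, -0.53 and -1.02) and at 2 h of actinomycin D (0.12). The half-life of Inhba ranged from 65.6 to 304 min and that of Vegfa from 160.0 to 958 min without 1 array. The p-RNA ratio alone gave 34.1 min for Inhba and 56.0 min for Vegfa, and actinomycin D 74.5 min for Vegfa by its first probe set. The cause was not tested.

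With the replicate block, no call changed where numbers paired the arrays. For nt-RNA at 15 min against 30 min, where they did not, the replicate block gave 2 calls, Hbegf and Inhba, in place of 3 (Ereg -1.05, adjusted p = 0.056; Gdnf -1.23, adjusted p = 0.092). The triplet averages, leaving out triplets, and leaving out both arrays that stood apart were chosen after seeing the data. With triplets averaged, probe sets called in the enrichment difference went from 2991 to 0 and in tc-RNA at 30 min against untreated cells from 112 to 44 (46 with the replicate block), and in nt-RNA at 60 min against 30 min from 2740 to 1798 (1726 with the block), while the ligands called in total RNA were still Hbegf and Ereg. Over all alternatives, counts over all probe sets ran from 0 to 648 between 2F and 60 min (4 as reported), from 316 to 3494 for p-RNA (1360), from 567 to 2990 for tc-RNA at 60 min against untreated cells (1308), from 34 to 270 at 30 min (112), from 142 to 472 in 2F (287), from 299 to 1704 at 1 h (926) and from 484 to 2488 at 2 h (1500) of actinomycin D. A mean log2 of 7 or more, which tests fewer probe sets, gave 4083 in place of 7916, 3446 in place of 6088 and 4049 in place of 7419 for nt-RNA against tc-RNA at 30 min, 60 min and 2F, and 531 in place of 1446 between 2 h and 1 h. For nt-RNA against 30 min the lowest counts were 1066 in place of 2747 at 15 min and 417 at 60 min, both without 1 triplet. Probe sets below an intensity of 32 carry little information.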

Other observations

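In unlabelled, pre-existing RNA at 60 min, Hbegf read 445 to 596 and Ereg 479.89 to 563, above the 146 to 167 and 186 to 245 of total RNA taken before treatment. Inhba (60.01 to 100.84) and Vegfa (214 to 240.49) lay below their untreated ranges of 139 to 173 and 277 to 340.17. The difference between these groups was not tested.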
